A study of Caenorhabditis elegans with 2 samples.

Results

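The histone genes of Caenorhabditis elegans were examined in a ChIP-seq experiment on EYG-1, a homeodomain protein encoded by eyg-1 (sequence name Y53C12C.1). A gene was taken as a histone gene if it was protein-coding in the Ensembl annotation of WBcel235, the build also called ce11, and its symbol was his- followed by a number, or htz-1. This rule found 73 of the 19973 protein-coding genes on the 6 chromosomes, and it used names only, no measured value. By their RefSeq descriptions, 17 encode H2A, 16 H2B, 15 H3 and 16 H4, the 4 core histones. A further 5 encode H3 of the H3.3 type (his-69, his-70, his-71, his-72 and his-74), htz-1 encodes H2A.Z and his-24 a linker histone H1. The last pair, his-73 and his-39, are short genes of 141 and 204 bp that RefSeq describes only as containing a histone domain. Genes at most 5000 bp apart were joined into loci, which gave 20 loci of 1 to 13 genes.

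The worms were hermaphrodites of strain OP443, whose transgene, given as an insertion for eyg-1, adds a GFP and FLAG tag to the C-terminus of the protein. Whole embryos in late embryogenesis were taken 4 hours after the culture had been synchronized by bleaching, and sonicated chromatin was precipitated with an antibody to GFP. The labels give 1 group of 2 libraries, biological replicates 1 and 3, with no other genotype, stage or treatment, so every value below describes this 1 condition and no test between groups was possible. The control library that the labels mention was not analysed here, and the state of the untagged eyg-1 copy was not given. Because whole embryos were used, a region bound in a few cells cannot be told apart from one bound weakly in many.

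Histones package DNA into nucleosomes, in which DNA winds around an octamer of the core histones H2A, H2B, H3 and H4, while linker histone H1 sits where the DNA enters and leaves. Most core histone genes are expressed in S phase, occur in many near-identical copies and lie as divergent pairs that share a short stretch of upstream DNA, H2A with H2B and H3 with H4. The H3.3 genes and htz-1 supply variants that can be placed in chromatin outside replication. In dividing embryonic cells, each S phase needs new core histones.

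Stretches of 121 bases are shown for 8 loci, so that the DNA under some of the highest regions can be set beside that of repeated gaps between histone genes with no summit in them. Each is written 5′ to 3′ in ce11 on the strand given, and comes from the RefSeq copy of the genome. Capitals mark CTCCNCCT, CATTCGG and GGGGACAC on either strand, words whose frequency in histone promoters is given further on. The stretch at htz-1 (chrIV:4445916-4446036, plus strand) is centred on the pooled summit of a region found in all 4 lists, and carries CTCCNCCT on the minus strand. That at his-37 (chrV:9546921-9547041, plus strand) lies upstream of an H4 gene and has GGGGACAC on the minus strand. Those at his-32 (chrIV:8334123-8334243, plus strand) and his-62 (chrIV:7486329-7486449, plus strand) are centred on pooled summits between divergent genes, and each has CATTCGG. That at his-4 (chrV:16040577-16040697, minus strand) lies between an H2B and an H2A gene and holds a pooled summit of moderate signal.
htz-1: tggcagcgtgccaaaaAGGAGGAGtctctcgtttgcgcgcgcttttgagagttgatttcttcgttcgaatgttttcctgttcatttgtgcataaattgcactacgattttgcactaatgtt
his-37: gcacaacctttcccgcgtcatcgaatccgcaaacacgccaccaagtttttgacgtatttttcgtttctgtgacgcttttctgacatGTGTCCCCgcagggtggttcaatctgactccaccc
his-32: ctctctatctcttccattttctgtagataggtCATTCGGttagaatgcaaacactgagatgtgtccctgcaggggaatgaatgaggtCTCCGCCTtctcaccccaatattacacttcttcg
his-62: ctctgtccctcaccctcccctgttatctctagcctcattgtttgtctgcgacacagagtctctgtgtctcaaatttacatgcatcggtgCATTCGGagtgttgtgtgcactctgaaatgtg
his-4: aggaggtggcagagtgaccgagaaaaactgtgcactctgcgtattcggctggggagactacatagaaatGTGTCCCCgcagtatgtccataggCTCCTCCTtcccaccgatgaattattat

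The other 3 stretches are the centres of intergenic gaps in which no list had a summit, between his-51 and his-52 (chrV:8850257-8850377, plus strand), his-16 and his-15 (chrII:13818197-13818317, plus strand) and his-47 and his-48 (chrIV:11324532-11324652, plus strand). Their gap sequences occur 4, 3 and 3 times in the genome. All 3 hold CATTCGG and GGGGACAC, and that of his-16 and his-15 holds CTCCNCCT at 2 places as well.
his-51/his-52: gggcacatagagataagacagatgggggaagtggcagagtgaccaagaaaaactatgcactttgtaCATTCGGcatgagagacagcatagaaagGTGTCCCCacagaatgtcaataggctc
his-16/his-15: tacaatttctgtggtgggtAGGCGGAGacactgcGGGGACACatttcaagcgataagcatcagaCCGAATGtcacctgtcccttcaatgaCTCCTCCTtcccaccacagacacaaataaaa
his-47/his-48: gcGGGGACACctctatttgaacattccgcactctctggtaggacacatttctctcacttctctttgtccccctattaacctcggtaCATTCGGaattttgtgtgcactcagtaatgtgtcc

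Of the 73 histone genes, 29 (39.7%) had a pooled summit within 1000 bp of the annotated 5′ end, against 41.6% of all protein-coding genes. The pooled list was called on both libraries together and, like the replicate lists, holds background regions by construction, so that presence in it is common and is not by itself evidence of binding. The list of replicate 1 reached 38 histone genes (52.1%) against 45.6% of all genes, and that of replicate 3 reached 30 (41.1%) against 42.8%. In the pooled list and in that of replicate 3 the histone genes were thus near the background, and in that of replicate 1 somewhat above it. A summit in both replicate lists was found at 27 histone genes (36.99%) against 25.8% of all genes. For this count the replicate summits could lie anywhere within 1000 bp of the 5′ end and did not need to match in position. The optimal list holds the 519 regions that passed an irreproducible discovery rate (IDR) threshold, which is set on how well ranks agree between replicates. It reached 3 histone genes (4.11%), his-67, his-68 and htz-1, against 2.01% of all genes, and these 3 genes rest on 2 regions. No list had a summit within 1000 bp of 32 histone genes, and 41 had at least 1. The matching shares over all protein-coding genes were not computed, so these counts cannot be called high or low.

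Where histone genes did have a region, the median signal was higher than over all genes, a difference that was not tested. Signal is the height that the authors' peak caller gave each region, on a scale that is not stated, and is used here only within 1 list. Among the 519 pooled regions of highest signal, summits lay within 1000 bp of 6 histone genes (8.22%), against 2.17% of all genes. The same cut reached 8 histone genes (10.96%) against 2.12% in replicate 1, and 4 (5.48%) against 1.95% in replicate 3. Several of these genes share a region: the 6 are his-67 with his-68, his-31 with his-32, htz-1 and his-37, each pair on 1 region. Replicate 1 added his-61 with his-62, again on 1 region, and replicate 3 lacked his-31 with his-32. The median of the highest signal per gene, over genes with a region, was 31.95 at the 29 histone genes and 20.4 at 8311 protein-coding genes in the pooled list. It was 14.8 at 38 histone genes and 10.9 at all 9100 genes with a region in replicate 1, and 18.4 at 30 and 13.4 at 8554 in replicate 3. Divergent genes share a region, so the genes are not independent: the 29 genes rest on 30 pooled regions, of which 14 lie near 1 histone gene, 14 near 2 and 2 near 3. By region rather than by gene, the median pooled signal was 27.8 at the 30 histone regions and 18.2 over all 24215. The 30 were chosen for lying within 1000 bp of a 5′ end and the 24215 were not, so these sets are unlike in position.

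**Figure D1:**
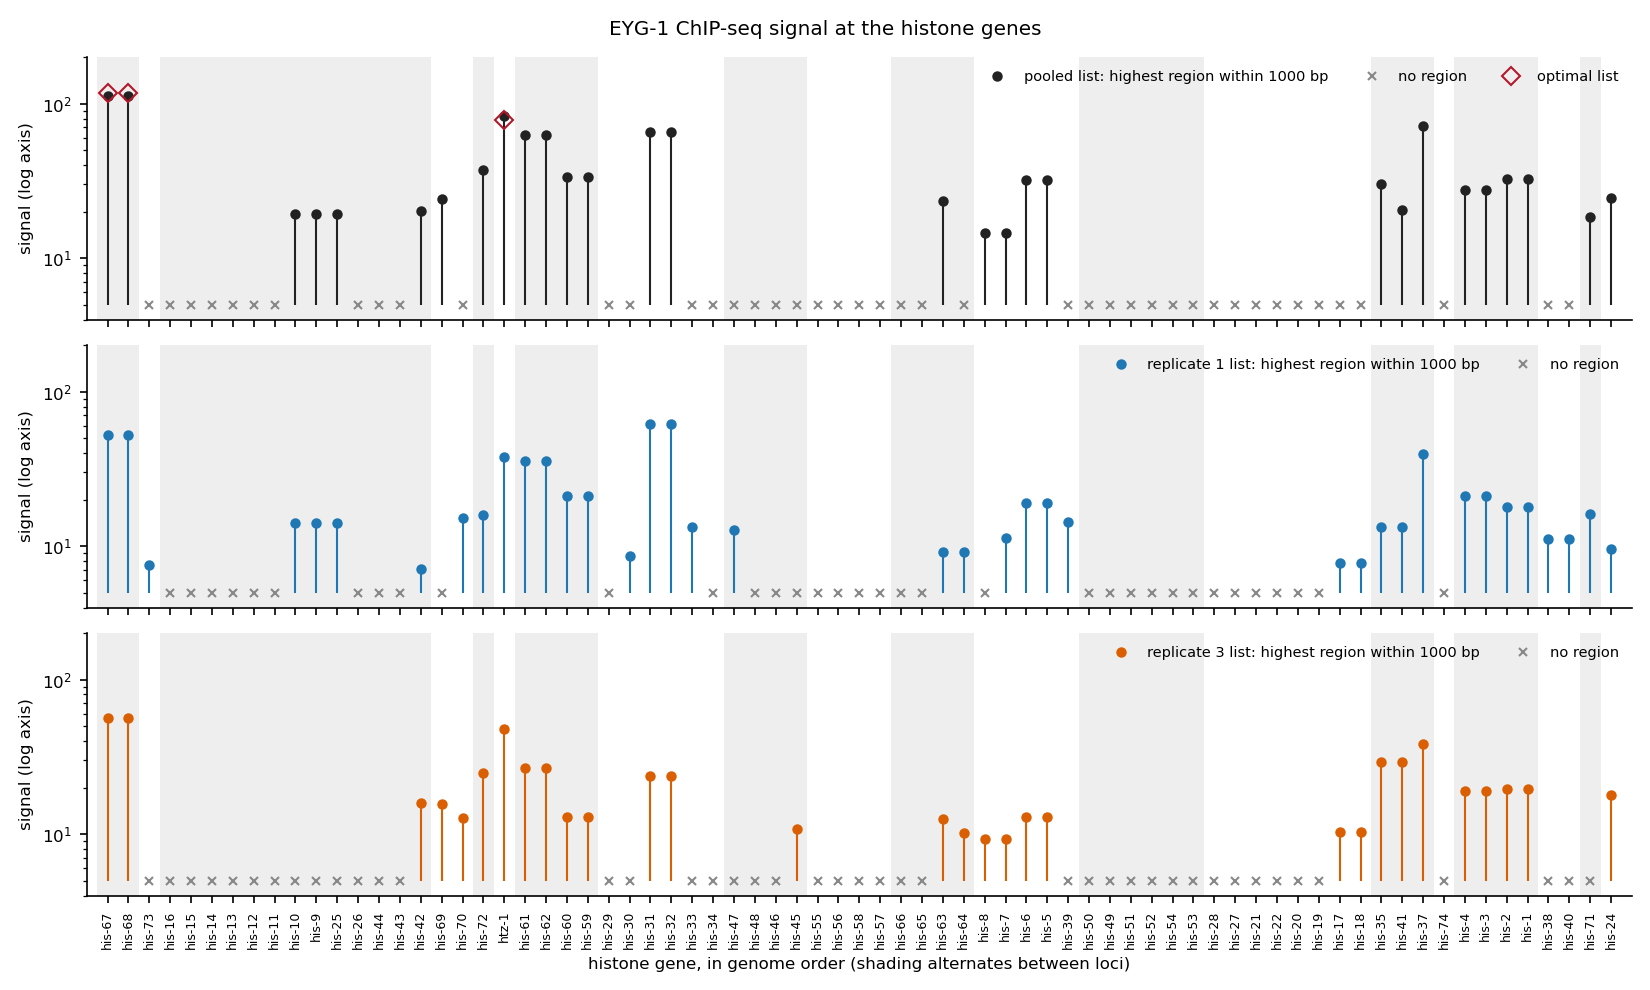
Highest signal of a region within 1000 bp of each of the 73 histone genes, on a log axis, in the pooled list (top), replicate 1 (middle) and replicate 3 (bottom). Points are regions, crosses are genes with no region in that list, and open diamonds are the 3 genes with a region of the optimal list; the genes from his-50 to his-19 have no region in any of the lists.

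The highest pooled region at any histone gene lay between his-67 and his-68, on chromosome I from 9988753 to 9989208. These genes encode H4 and H2A, and theirs was the single divergent pair of this kind, with a gap of 368 bp, the widest of all pairs. The region had a signal of 111.5 in the pooled list (rank 133), 52.2 in replicate 1 (rank 134), 56.7 in replicate 3 (rank 185) and 117.2 in the optimal list (rank 130). Its rank was thus similar in all 4 lists, and the replicate summits lay 1 and 23 bp from the pooled one. The pooled summit, at position 9988981, was 151 bp upstream of his-68 and 218 bp upstream of his-67, in sequence with no gene.

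Another core locus, on chromosome IV, held his-61, his-62, his-60 and his-59, with 1 gene of each core class. Between his-61 (H2A) and his-62 (H2B), the pooled region from 7486161 to 7486616 had a signal of 62.8 (rank 530), and the replicates had 35.5 (rank 367) and 26.8 (rank 1101). Its pooled summit, 156 bp upstream of his-62, was matched at 0 bp in replicate 1 and 45 bp in replicate 3, but no region of the optimal list lay there. At his-60 (H4) and his-59 (H3), 3 pooled summits of signal 24.9, 31.5 and 33.7 lay inside the coding sequences of these genes, from 87 bp downstream of the his-60 end to 405 bp downstream of the his-59 end. The gap between these genes had a summit only in replicate 1, of signal 19.3.

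Also on chromosome IV, his-31 (H4) and his-32 (H3) shared the pooled region from 8333955 to 8334410, with a signal of 65.3 (rank 483). The replicates differed most here among the leading regions. In replicate 1 the summit lay 12 bp away with a signal of 61.2 (rank 80), the highest of any histone region in that list. Replicate 3 lacked a summit within 100 bp of it, and its strongest one at this locus was inside the coding sequence of his-32, 100 bp downstream of its 5′ end, with a signal of 23.9 (rank 1510). The pooled list had a summit of signal 28.4 there too, at 98 bp. The flanking pairs of the same locus, his-29 with his-30 and his-33 with his-34, had no pooled region, and both pairs share 1 gap sequence in 2 copies.

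**Figure D2:**
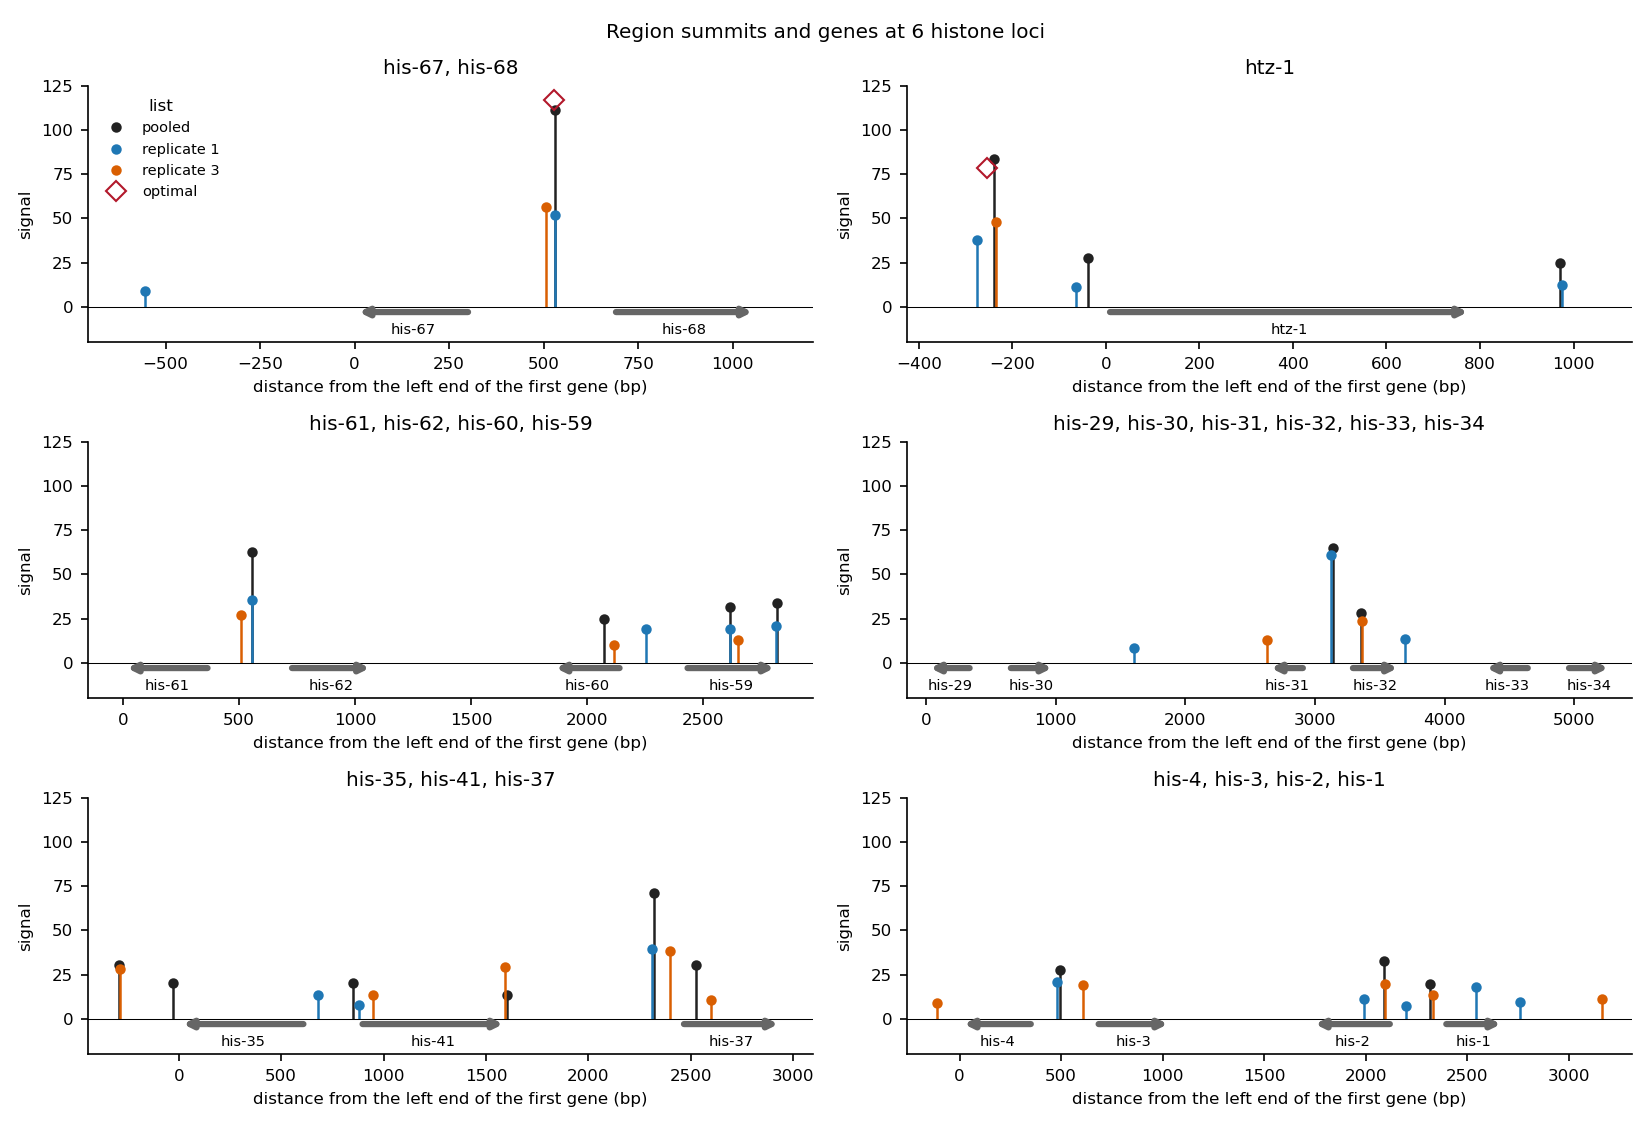
Summits and genes at 6 histone loci. The horizontal axis is the distance in bp from the left end of the first gene, the vertical axis the signal; grey arrows are genes pointing in the direction of transcription, and points are summits of the pooled list and the replicates, with open diamonds for the optimal list. The highest summits stand in gaps upstream of his-67 and his-68 (111.5), htz-1 (83.5), his-37 (71.4), his-31 and his-32 (65.3) and his-61 and his-62 (62.8).

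On chromosome V, his-37 encodes H4 and lies near the H2A gene his-35 and the H2B gene his-41, outside the large arrays. The pooled region from 9546753 to 9547208 had a signal of 71.4 (rank 388), with its summit 124 bp upstream of his-37. Replicate 1 had 39.3 there (rank 280) at a distance of 10 bp and replicate 3 had 38.5 (rank 472) at 76 bp, while the optimal list had none. Both replicates thus placed it among their 519 highest regions. The gap between his-35 and his-41 held a pooled summit of signal 20.3 and a replicate 1 summit of 13.3. The replicate summits within 100 bp of the pooled one, 7.75 in replicate 1 and 13.6 in replicate 3, lay 5 and 69 bp inside his-41. The highest region within 1000 bp of his-35 had a pooled signal of 30.2, but its summit was nearer to mdf-1, a spindle checkpoint gene, at 140 bp upstream. In replicate 3 a signal of 29.4 within 1000 bp of his-35, his-41 and his-37 lay in a non-coding exon part of C50F4.6.

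The 4 genes his-4, his-3, his-2 and his-1, again of all core classes, form a locus further along chromosome V. Between his-4 (H2B) and his-3 (H2A), the pooled signal was 27.7 (rank 3537), with 20.95 in replicate 1 and 18.9 in replicate 3. The replicate 1 summit lay 13 bp from the pooled one, and replicate 3 had none within 100 bp of it. Between his-2 (H3) and his-1 (H4), the pooled signal was 19.7, and a higher summit of 32.6 lay 50 bp inside the coding sequence of his-2. That summit was matched in replicate 1 (11.1, at 99 bp) and replicate 3 (19.7, at 5 bp). At his-6 (H3) and his-5 (H4), also on chromosome V, a pooled summit of 31.95 lay between the genes, with 18.97 in replicate 1 and 12.9 in replicate 3, at 23 and 0 bp. The neighbouring his-8 (H2B) and his-7 (H2A) had a weak pooled summit of 14.5 in the coding sequence of his-8, with no match within 100 bp in either replicate.

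At the remaining core loci, regions were weak or distant from the 5′ ends. In the array of 13 genes on chromosome II, his-10, his-9 and his-25 shared a pooled region of signal 19.2 with its summit 626 bp downstream of his-9, matched in replicate 1 (14.1) only. At the edge of that array, his-42 (H3) had a pooled signal of 20.3 at 962 bp upstream, 7.15 in replicate 1 and 15.99 in replicate 3. The protein-coding 5′ end nearest to that pooled summit was that of F08G2.4, at 943 bp. A small nuclear RNA gene was closer, 168 bp from the pooled summit and 69 bp from the replicate 3 summit. On chromosome IV, his-63 (H3) had a pooled signal of 23.5 at 875 bp downstream, in a non-coding exon part of the cytochrome P450 gene cyp-31A2. Its partner his-64 (H4) had regions in both replicates, 9.16 and 10.1, and none in the pooled list. Their summits, 95 and 458 bp upstream of his-64, were too far apart to match. At his-17 (H3) and his-18 (H4) on chromosome V, replicate 1 had 7.81, replicate 3 had 10.4 and the pooled list had none. Those replicate summits, 4 bp upstream and 509 bp downstream of the his-18 end, did not match either. The replicate 3 summit was nearer to frpr-13, at 319 bp upstream. Replicate 1 alone had a region at his-30, his-33, his-47, his-38 and his-40, of signal 8.596 to 13.4, and replicate 3 alone at his-45, of 10.8.

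Among the variant genes, htz-1 had the highest signal. Its H2A.Z protein is deposited at the nucleosomes around many promoters. The pooled region on chromosome IV from 4445748 to 4446203 had a signal of 83.5 (rank 270), with 37.6 in replicate 1 (rank 318), 47.7 in replicate 3 (rank 295) and 78.8 in the optimal list (rank 394). All 4 lists placed the summit between 234 and 276 bp upstream of htz-1, at 240 bp in the pooled list. It lies as near to the 5′ end of wapl-1, a cohesin release factor gene, at 236 bp upstream, so the region cannot be given to 1 of these genes. Further pooled summits lay 38 bp upstream (27.8) and 971 bp downstream (24.8) of the htz-1 end. That downstream summit stood 144 bp upstream of chat-1 and 319 bp from a small nucleolar RNA gene.

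The H3.3 genes had lower signals and no region of the optimal list. The highest was at his-72 on chromosome III, whose pooled signal was 37.04 (rank 1676) in an intron, 200 bp downstream of the 5′ end, with 16.004 in replicate 1 and 24.98 in replicate 3. A small nucleolar RNA gene lay 306 bp from that pooled summit. Other pooled summits at his-72 lay 20 bp upstream (14.1) and 716 bp upstream (30.8), where the proteasome gene rpt-6 was nearer, at 690 bp. At his-69 a pooled summit of 24.2 lay 707 bp downstream of the 5′ end and 60 bp upstream of rcq-5, a RecQ helicase gene, and it was matched in replicate 3 (15.6) but not in replicate 1. At his-70 the replicates had 15.1 and 12.6 at 822 and 248 bp upstream, too far apart to match, and the pooled list had none. At his-71 the pooled signal was 18.6 at 749 bp upstream, with 16.1 in replicate 1 and none in replicate 3. No list had a summit within 1000 bp of his-74, whose nearest pooled summit was 1238 bp away. The linker histone gene his-24, on the X chromosome, had a pooled signal of 24.7 at 38 bp downstream of its 5′ end, with 8.89 in replicate 1 and 17.8 in replicate 3 at 59 and 12 bp from it. The gene fragments his-73 and his-39 had regions in replicate 1 only, of 7.53 and 14.4.

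The strongest histone regions were all upstream. The 5 highest pooled summits, at his-68, htz-1, his-37, his-32 and his-62 as nearest histone gene, lay 122 to 240 bp upstream of that gene's 5′ end, in sequence between genes. At his-68, his-32 and his-62 the summit lay between divergent histone genes, and at htz-1 between htz-1 and wapl-1. Any position in such a gap is upstream of both genes. The other 25 pooled summits had signals between 13.5 and 37.04 and were spread on both sides of the 5′ end. Of all 30, 14 were upstream of the nearest histone gene, 19 lay between genes, 7 in coding sequence of a histone gene, 2 in an intron or non-coding exon of such a gene and 2 in other genes. For 8 regions the 5′ end of another protein-coding gene was nearer than any histone gene's. Both replicates matched 13 of the 30 within 100 bp, replicate 1 alone 6, replicate 3 alone 9 and neither 2. Shares over all pooled regions were not computed for these positions and matches, so the counts cannot be called high or low. Of the 5 highest, 4 were matched in both, the exception being that at his-31 and his-32. Nearest the limit of 1000 bp, his-42 and his-25 were inside at 962 and 985 bp, and his-47, his-64 and his-74 outside at 1082, 1130 and 1238 bp.

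**Figure D3:**
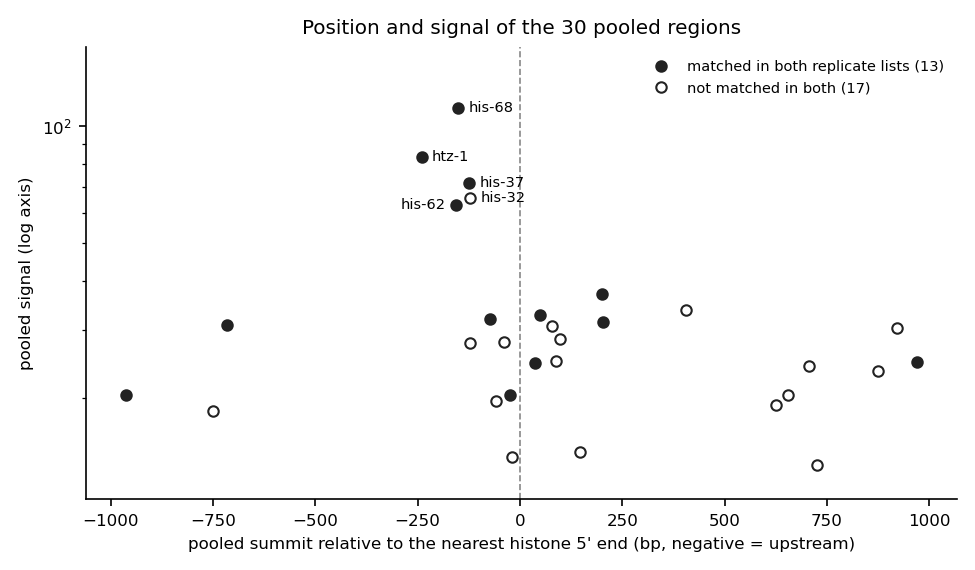
Signal of the 30 pooled regions near histone genes (log axis) by the position of the summit relative to the nearest histone 5′ end in bp, with upstream to the left. Filled points are matched within 100 bp in both replicates (13) and open points are not (17); the 5 highest lie between 240 and 122 bp upstream.

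The core classes can be read side by side, since each has 15 to 17 genes. A pooled region reached 5 of 17 H2A genes, 4 of 16 H2B genes, 8 of 15 H3 genes and 7 of 16 H4 genes, beside 41.6% of all protein-coding genes. Both replicates reached 5 H2A, 3 H2B, 7 H3 and 8 H4 genes, beside 25.8% of all genes. In no list were 9 H2A, 12 H2B, 4 H3 and 6 H4 genes, a count for which the share over all genes was not computed. In all, 24 of the 64 core genes had a pooled region, and of the 5 H3.3 genes 3 had one. No class stands alone, as H2A and H2B genes share regions and so do H3 and H4 genes. Repeated sequence also moved with class: the median share of repeated 32-base words around the 5′ end (within 500 bp, counting words found elsewhere in the genome as well) was 97.01% for H2A, 98.4% for H2B, 92.8% for H3 and 69.02% for H4 genes. Its part in the class counts was not tested.

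The core genes formed 31 divergent pairs, of which 16 were H2A with H2B, 14 H3 with H4 and 1 H2A with H4. The gaps between their 5′ ends measured 227 to 368 bp, with a median of 258 bp. A pooled summit lay in 7 of the 31 gaps, a replicate 1 summit in 11, a replicate 3 summit in 5 and an optimal summit in 1. Gaps between other divergent genes were not counted, so no count of gaps given here can be called high or low. By class, the pooled list had summits in 3 of 16 H2A and H2B gaps and in 3 of 14 H3 and H4 gaps. The 31 gaps hold 21 distinct sequences: 14 gaps were unique and 17 belonged to sets of identical copies. A gap was called unique where its whole sequence had no exact second copy, so parts of it can still be repeated. All 7 gaps with a pooled summit were unique, and 0 of the 17 repeated gaps held a summit in the pooled list or in either replicate. Of the 14 unique gaps, 11 held a summit in at least 1 of these lists. Those without one were at his-46 and his-45, his-55 and his-56, and his-8 and his-7. In the 300 bases upstream of his-46, his-45, his-55 and his-56, 88.1% of 32-base words were repeated. At his-8 and his-7 the share was 23.05 and 23.8%. At his-17 and his-18, whose gap had a summit in replicate 1 only, it was 92.2 and 99.3%.

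Much of the DNA around histone 5′ ends is repeated sequence. The share of 32-base words within 500 bp of the 5′ end that also occur elsewhere in the genome had a median of 92.8% at the 73 histone genes and 0% at all protein-coding genes. It was 21.96% at the 29 histone genes with a pooled region and 100% at the 44 without. How reads that match several places were treated before the regions were called is not given in the sources used here, and the part of repeated sequence in the absence of regions was not tested. A share of 100% was found at 25 histone genes, of which 2 had a pooled region, 4 a region in replicate 1 and 0 in replicate 3 or the optimal list. Both with a pooled region, his-10 and his-9, share the single summit between his-9 and his-25. Other protein-coding genes with a share of 100% were not counted apart, so the counts at these 25 cannot be called high or low.

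Set beside other genes of like repeat content, a larger share of histone genes had a pooled region in each range, although in the highest range it rests on 1 region. Under 10% repeated words, 9 of 11 histone genes (81.8%) had one, against 7661 of 17569 other protein-coding genes (43.6%). From 10 to under 50% the counts were 12 of 16 (75%) against 584 of 1788 (32.7%), and from 50 to under 90% they were 5 of 8 (62.5%) against 36 of 307 (11.7%). At 90% or more they were 3 of 38 (7.89%) for histone genes and 1 of 236 (0.424%) for other genes. Those 3 histone genes, his-10, his-9 and his-25, rest on the 1 pooled region of signal 19.2 (rank 10444), which had no match in replicate 3. In both sets of genes the share with a pooled region was lower in each higher range of repeat content. In the 4 ranges, low to high, replicate 1 reached 81.8, 100, 75 and 18.4% of histone genes, against 47.6, 36.5, 13.7 and 1.27% of other genes, and replicate 3 reached 81.8, 75, 87.5 and 5.26% against 44.97, 32.8, 11.7 and 0.847%. Most histone genes, 38 of 73, were in the highest range, which held 236 of the other genes. These shares rest on few histone genes, several of which share 1 region, and the difference was not tested.

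**Figure D4:**
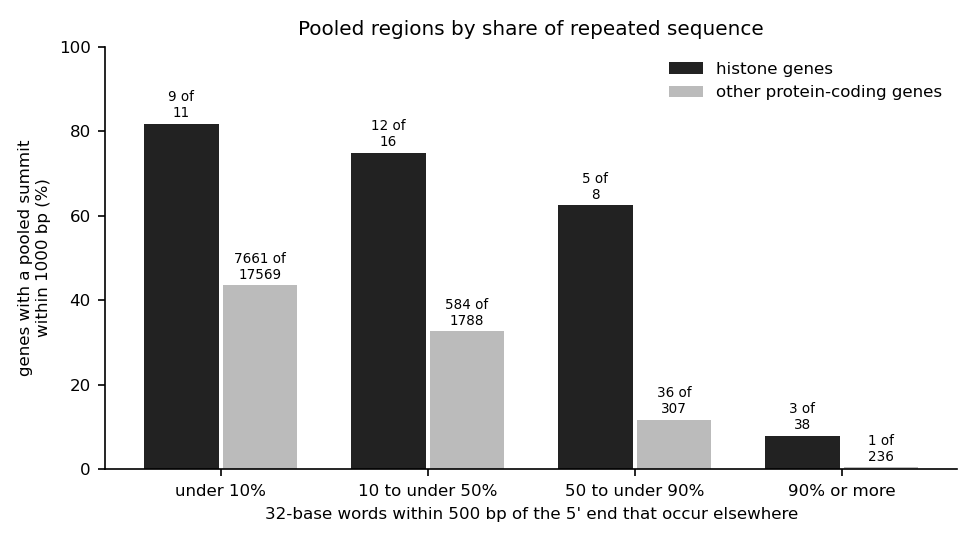
Share of genes with a pooled summit within 1000 bp of the 5′ end (vertical axis, %), for histone genes (black) and other protein-coding genes (grey), by the share of 32-base words within 500 bp of the 5′ end that occur elsewhere in the genome. Counts stand above the bars; the histone bar is the higher one in each range, and in the highest range the bars stand at 7.89% and 0.424%.

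**Figure D5:**
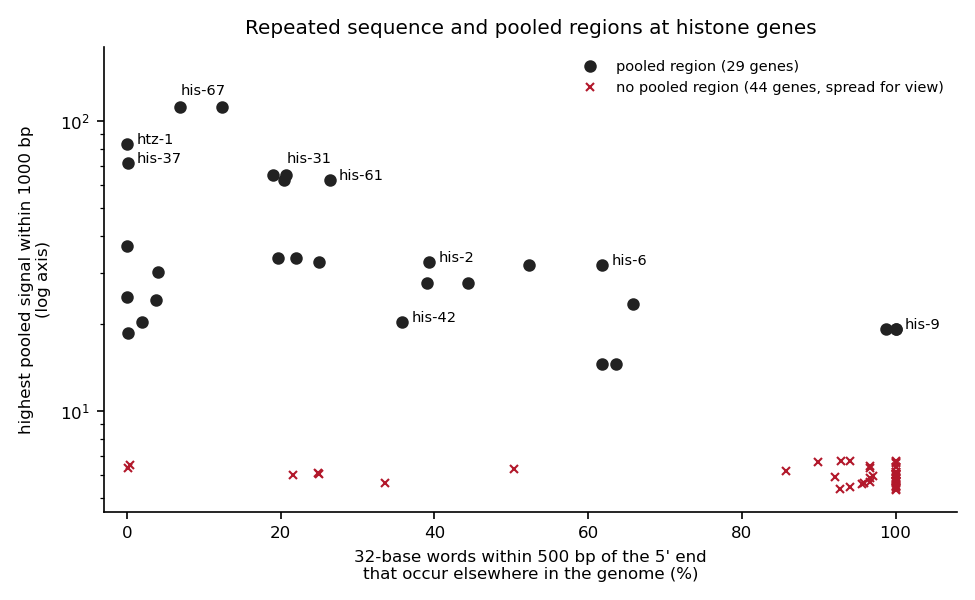
Highest pooled signal within 1000 bp of a histone gene (log axis) by the share of repeated 32-base words within 500 bp of its 5′ end (%). Points are the 29 genes with a pooled region; crosses, spread vertically only for view, are the 44 without, most of them at 90% or more. The 3 loci of highest signal, at his-67 and his-68, htz-1 and his-37, have shares of at most 12.4%.

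The longest stretch without regions at histone genes covered 2 arrays on chromosome V. Consecutive pooled summits at positions 8802440 and 8904741 left 102.3 kb without a summit, the gap ranked 3 by length in the pooled list, in which the median gap was 2277 bp. In replicate 1 the gap there was 91.8 kb and in replicate 3 it was 93.3 kb, both ranked 2 in their list. The pooled stretch holds 29 protein-coding 5′ ends, 14 of them of histone genes, and at 25 of the 29 every 32-base word within 500 bp was repeated. The histone genes run from his-50 to his-18 and include 4 identical intergenic gaps, that between his-51 and his-52 among them.

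Short words were counted in the promoters of the histone genes, taken as 250 bases before to 50 after the 5′ end, on both strands, beside all 19973 protein-coding promoters of the same length. The word CTCCNCCT was found in 53 histone promoters (72.6%) against 5.05% of all. TATAAA, the core of a TATA box, was found in 47 (64.4%) against 37.9%, and CCAAT in 39 (53.4%) against 45.5%. The homeodomain-type word TAATTG was found in 7 (9.59%) against 23.6%, TAAT and ATTA 3 bases apart in 0 against 1.99%, and CTCTCTCT in 0 against 2.94%. CATTCGG and GGGGACAC, chosen after the printed sequences had been seen, were each found in 44 (60.3%), against 2.17% and 0.536% of all promoters. Divergent genes share most of such a window and 73 promoters hold 62 distinct sequences, so a site can count at several genes.

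The same words were counted in promoters with and without a pooled region. CATTCGG was in 12 of 29 histone promoters with a pooled region (41.4%) and in 32 of 44 without (72.7%). CTCCNCCT was in 19 of 29 (65.5%) and in 34 of 44 (77.3%), and GGGGACAC in 15 of 29 (51.7%) and in 29 of 44 (65.9%). TATAAA was in 20 of 29 (68.97%) and in 27 of 44 (61.4%). CATTCGG, CTCCNCCT and GGGGACAC were in a larger share of promoters without a region, but CATTCGG and GGGGACAC had been picked from the printed stretches, which include all 3 gaps without a summit, and many of these promoters are copies of one another. Within 50 bp of the 30 pooled summits, CTCCNCCT was in 6 windows (20%), against 1.92% of all 24215 pooled windows, and CATTCGG and GGGGACAC in 3 each (10%), against 0.797% and 0.165%. For each of CATTCGG and GGGGACAC, 2 of these 3 windows lie in the printed stretches. In the same windows TATAAA was in 5 (16.7%) against 10.95%, and CCAAT in 5 (16.7%) against 19.4%. The homeodomain-type word TAATTG was in 1 (3.33%) against 7.62%. TAAT and ATTA 3 bases apart were in 0 against 0.463%, and CTCTCTCT in 0 against 1.51%. CTCCNCCT, CATTCGG and GGGGACAC were each also commoner in histone promoters than in all promoters, CTCCNCCT at 72.6% against 5.05%. Windows elsewhere in histone promoters were not counted, so the higher shares near these summits cannot be tied to the summits. A match is a description of the letters and was not taken as a binding site.

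Other genes of histone supply were read from a list of 24 genes, which covers linker histone relatives, centromeric and sperm variants, the stem-loop binding protein and histone chaperones. A pooled region lay within 1000 bp of 17 of them, a replicate 1 region of 15, a replicate 3 region of 20 and an optimal region of 3, where the shares over all protein-coding genes were 41.6, 45.6, 42.8 and 2.01%. Of the 3, chaf-2, a gene of the chaperone CAF-1, had the highest pooled signal, 139.8 (rank 71), with 75.03 in replicate 1, 68.3 in replicate 3 and 147.7 in the optimal list, although Y71G12B.30 had the nearer 5′ end. The linker histone gene hil-7 had 137.6 (rank 74), with 74.7 in replicate 1, 73.3 in replicate 3 and 128.4 in the optimal list. Its pooled summit lay 198 bp upstream of hil-7 and 365 bp from a small nucleolar RNA gene. The Asf1 chaperone gene unc-85 had 66.6 (rank 462) at 359 bp upstream, with 25.5 in replicate 1 and 46.1 in replicate 3, and the highest of its optimal regions, 79.6, had a summit 531 bp upstream. These are the highest values within 1000 bp in each list and need not be those of 1 summit. Signals at chaf-2 and hil-7 were above those of all histone genes in the pooled list. Among genes outside the optimal list, lin-53 had a pooled signal of 53.8 at a summit nearer to nra-2, the H3.3 remodeller gene xnp-1 53.3 and hira-1, of the H3.3 chaperone HIRA, 43.04. The stem-loop binding protein gene cdl-1 had 22.99 and the centromeric histone gene hcp-3 24.8, while hil-8, htas-1 and asfl-1 had no region in any list.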

How the data were processed

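Peak lists from 2 ChIP-seq libraries of 1 group were used in ce11, in 4 lists. Per the labels and the notes deposited with them, a control was set against a single library for each replicate list and against the merged libraries for the pooled list, background regions included. The optimal list kept regions that passed an irreproducible discovery rate (IDR) threshold. For the aligner and peak caller, names and versions are not given in the sources used here. Signal per region, the −log10 q-value of the replicate and pooled lists and the score of the optimal list are as the authors deposited them. The deposited summit offset gave positions, counted from 1. No read counts were used, so the depth of the libraries is unknown and no interval or test was computed.

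Genes came from Ensembl release 115 (WBcel235, the same build). Symbols came from RefSeq by WormBase identifier, which matched all 73 histone genes at the same coordinates, because Ensembl gives only 51 distinct symbols for them. Core classes and fragments were read from RefSeq descriptions, while H3.3, H2A.Z and linker H1 were assigned by gene symbol. A gene had a region if a summit lay within 1000 bp of its 5′ end. Summits matched between lists within 100 bp. Repeated sequence was the share of 32-base words within 500 bp of the 5′ end found more than once in the genome on either strand. Counting steps were tested on simulated data. Python 3.11.15, numpy 2.4.6, pandas 2.3.3 and matplotlib 3.10.9 were used. The ce10 lists were left out. The genes, lists and words were chosen with earlier results of these data known, and no value here is independent support for those results. Genes named are those with an optimal region, the gene nearest the highest pooled region of each locus and the 15 of highest pooled signal. Also named are the 5 of highest signal matched in both replicates and, whatever their values, his-24, his-35, his-69 to his-74 and htz-1. Others are named to account for every histone gene. Alternatives changed the distance limit, the 5′ end used, the part of the region measured, the regions kept, the matching distance, the locus gap and the word length, or left out a replicate.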

Additional observations from a re-analysis of the deposited data

How the results depend on the processing

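In all, 38 alternatives were run on 10 values, and 29 left the value within 1.5 times of that reported. At 500 and 2000 bp, 22 and 39 histone genes had a pooled region, against 29 at 1000 bp. Keeping only the 519 regions of highest signal left 6 histone genes in the pooled list, 8 in replicate 1 and 4 in replicate 3. Keeping only regions with a −log10 q-value of at least 2 left 8, 8 and 0, and the whole list of replicate 3 holds 0 such regions, its highest value being 1.78. At 500 and 2000 bp and at this q-value, shares over all protein-coding genes were not computed. The counts at those settings therefore do not show where histone genes stand against other genes. The 13 pooled regions matched in both replicates became 7 at 50 bp and 20 at 200 bp, and 19 to 22 when only 1 replicate was asked for a match. Without replicate 1 or replicate 3, 30 to 38 histone genes had a region in the list that remained. No paired analysis was possible because the labels give 1 group. With no read counts, what depth limits is unknown, and a region absent from a list does not show that EYG-1 was absent.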

Other observations

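The histone regions were richer in G and C than the lists they come from. The median GC content was 41.7% over the 30 pooled regions at histone genes, against 35.96% over all pooled regions, and 45.7% against 36.2% in replicate 1 and 41.3% against 35.6% in replicate 3. The optimal list as a whole had a median of 42.8%. Regions of the whole lists were not limited to those near 5′ ends, as the histone regions were.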
